A study of Mus musculus with 4 samples.

Results

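The p53 pathway genes described here are 30 genes of the tumor suppressor p53 and of its arrest, death receptor, repair and stress response targets, leaving out the Bcl2 family death genes. They were chosen by gene symbol, each of the 30 symbols matched 1 of the 54532 genes of the deposited table, and all 30 were among the 15993 genes that passed the filter on low counts. RNA came from mammary tumors grown in the mammary fat pad of C57BL/6 mice from injected MMTV-PyMT cells that carried a Dll1-mCherry reporter. In MMTV-PyMT cells the polyoma middle T antigen is driven by the MMTV promoter. Cells of all groups were the mCherry-positive fraction of a tumor cell gate made with CD45, CD31 and TER119 antibodies. The 2 unirradiated libraries came from tumors given no radiation, and the 2 irradiated libraries from tumors given targeted radiation on day 30. Neither the dose, the time from radiation to harvest, the age of the mice nor the state of the Trp53 gene in these tumors is given in the labels. A code in the sample titles splits the libraries exactly as treatment does, so the treatment and whatever that code stands for cannot be told apart. Whether replicate libraries represent different mice is not stated, and the spread behind each p-value may be technical.

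p53, encoded by Trp53 in mice, is a transcription factor that is held low by the ubiquitin ligase Mdm2 and its partner Mdm4. DNA breaks such as those made by ionizing radiation activate kinases that free p53 from Mdm2, mostly without a change in Trp53 RNA. Stabilized p53 binds paired half-sites in its target genes and raises the p21 gene Cdkn1a, which stops the cell cycle, along with repair, death and stress genes and with Mdm2 and the phosphatase gene Ppm1d, which close the feedback loop. In epithelial tumor cells with intact p53 these targets are a common readout of recent DNA damage.

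Promoters were compared first, because the consensus that p53 binds is the one sequence feature that most of these genes are known for. RefSeq (GRCm38.p6) gave 30 promoters for 23 of the 30 genes, each running from 250 bases before to 50 bases after an annotated start. The p53 half-site consensus, a motif of 10 bases that is its own reverse complement, occurred without mismatch in 12 of these 30 promoters (40%), of 11 genes, against 8.36% of all 32851 RefSeq promoters of the same length. A full site, meaning 2 half-sites with at most 2 mismatches in all and a spacer of up to 13 bases, occurred in 4 promoters (13.3%) against 4.09%. The 2 Aen promoters overlap and share 1 half-site, and the 2 Psrc1 promoters overlap too. CCAAT, read on both strands, was in 56.7% of these promoters, of 14 genes, against 37.4%. Both overlapping promoters of Aen and of Psrc1 are among them. TATAAA on both strands was in 6.67% against 13.6%, and the AP-1 motif TGACTCA or its reverse complement TGAGTCA in 6.67% against 5.2%. The promoters were richer in CG dinucleotides, with a median of 21 against 7. A match describes the letters only, and known p53 sites of several of these genes lie outside such short windows.

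The 4 promoters with a full site and that of Plk2, the gene with the smallest p in the comparison below, are shown 5′ to 3′ on the strand of the gene. Capitals mark the full site and any half-site without mismatch. The Cdkn1a promoter belongs to the upstream of 2 annotated starts. Its full site with the shortest spacer has 2 abutting half-sites that begin 51 and 41 bases before the start, with 1 mismatch. A half-site without mismatch also begins 73 bases before the start. It lies near enough to the one at 51 bases to form a full site without mismatch. Plk2 had no match.
Cdkn1a, chr17:29090729-29091028, plus strand: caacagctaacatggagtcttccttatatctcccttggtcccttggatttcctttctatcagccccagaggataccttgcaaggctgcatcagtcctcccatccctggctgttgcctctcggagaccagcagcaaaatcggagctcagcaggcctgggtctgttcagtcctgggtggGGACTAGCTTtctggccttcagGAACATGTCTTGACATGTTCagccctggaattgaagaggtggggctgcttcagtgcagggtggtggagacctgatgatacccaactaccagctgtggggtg
Ccng1, chr11:40755237-40755536, minus strand: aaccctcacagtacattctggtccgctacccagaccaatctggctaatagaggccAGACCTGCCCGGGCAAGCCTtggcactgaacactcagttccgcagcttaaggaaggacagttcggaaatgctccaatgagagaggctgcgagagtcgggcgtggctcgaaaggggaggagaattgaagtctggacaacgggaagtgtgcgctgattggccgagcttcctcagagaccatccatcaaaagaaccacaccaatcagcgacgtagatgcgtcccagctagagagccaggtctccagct
Gadd45a, chr6:67037358-67037657, minus strand: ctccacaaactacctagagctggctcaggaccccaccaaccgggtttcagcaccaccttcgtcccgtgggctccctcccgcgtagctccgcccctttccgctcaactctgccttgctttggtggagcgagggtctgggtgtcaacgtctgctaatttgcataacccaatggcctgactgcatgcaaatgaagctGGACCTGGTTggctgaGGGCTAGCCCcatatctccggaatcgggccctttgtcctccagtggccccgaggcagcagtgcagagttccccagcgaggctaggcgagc
Sesn1, chr10:41887189-41887488, plus strand: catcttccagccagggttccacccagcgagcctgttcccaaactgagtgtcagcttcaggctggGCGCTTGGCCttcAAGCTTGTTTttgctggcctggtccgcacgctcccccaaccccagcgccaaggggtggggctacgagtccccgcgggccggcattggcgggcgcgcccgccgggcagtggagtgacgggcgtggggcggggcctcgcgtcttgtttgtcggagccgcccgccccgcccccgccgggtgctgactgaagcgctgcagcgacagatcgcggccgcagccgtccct
Plk2, chr13:110394794-110395093, plus strand: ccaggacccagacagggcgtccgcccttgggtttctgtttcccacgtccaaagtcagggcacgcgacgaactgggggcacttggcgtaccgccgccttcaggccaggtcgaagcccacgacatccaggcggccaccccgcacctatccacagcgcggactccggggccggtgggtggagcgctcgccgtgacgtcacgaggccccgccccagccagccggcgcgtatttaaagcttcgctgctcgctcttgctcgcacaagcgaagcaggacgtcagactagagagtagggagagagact

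**Figure D1:**
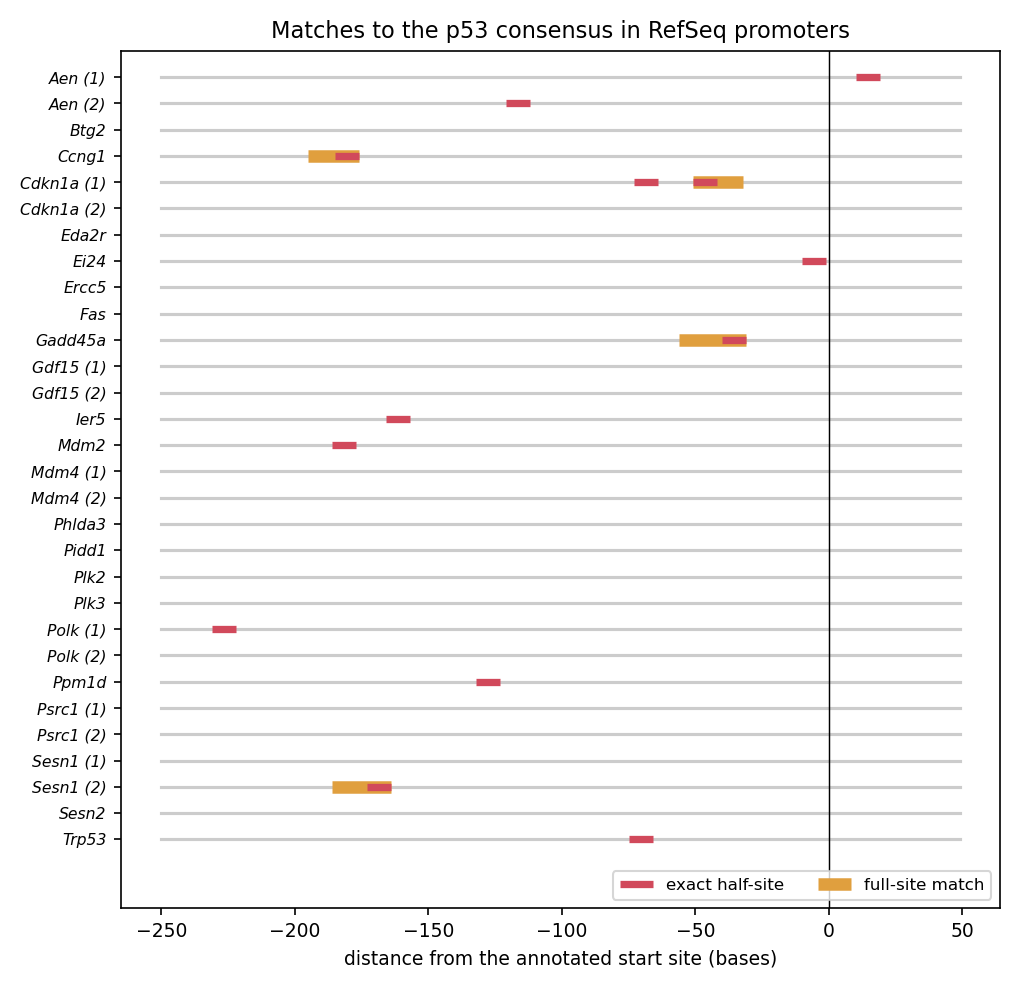
Matches to the p53 consensus in the 30 RefSeq promoters of 23 p53 pathway genes, by distance from the annotated start in bases; genes with 2 promoters are numbered. Half-sites without mismatch (red) lie in 12 promoters and full sites with at most 2 mismatches (orange) in 4.

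Summed counts ran from 16811888 to 20817997 per library. Markers of mammary epithelium were abundant in every library, with a sum over 16 genes of 13938 and 13418 CPM without radiation, 14079 CPM in irradiated 1 and 11549 CPM in irradiated 2 (CPM: counts scaled to library size and by the trimmed mean of M-values, TMM). Irradiated 2 stood apart in markers of other cell types. The 10 fibroblast markers summed to 5931 CPM there, to 818 CPM in irradiated 1 and to 608 and 625 CPM without radiation, and the 10 endothelial markers to 848 CPM, 54.9 CPM, and 33.3 and 30.4 CPM. Most macrophage markers lay above in both irradiated libraries, against 20.3% of all tested genes. Of 10 macrophage markers 9 did, with median log2 differences of 2.45 in irradiated 1 and 5.69 in irradiated 2. The 8 lymphocyte markers that passed the filter also lay above in both. Of these, Cd3g, Cd2, Cd8a and Cd4 had under 10 counts in each unirradiated library, as did the macrophage marker Mrc1. Such genes passed the filter only through the irradiated libraries, so the lymphocyte count is not set against the share of all genes. The other 2 of 10 lymphocyte markers, Cd3e and Nkg7, did not pass the filter and overlapped between groups. Macrophage markers summed to 358 and 325 CPM, 365 CPM and 1048 CPM, a sum in which Cd14 was at 335 and 304 CPM, 276 CPM and 325 CPM, and lymphocyte markers to 5.87 and 5.48 CPM, 21.7 CPM and 118 CPM. None of these markers was at 0 in all 4 libraries, and their part in the results below was not tested. The unirradiated pair had a common biological coefficient of variation of 5.93%, the irradiated pair one of 39.8%. Dll1 RNA, the transcript behind the sort reporter, measured 130 and 129 CPM without radiation, then 146 CPM in irradiated 1 and 80.2 CPM in irradiated 2. In bulk RNA, fewer cells of a type and less RNA per cell cannot be told apart.

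**Figure D2:**
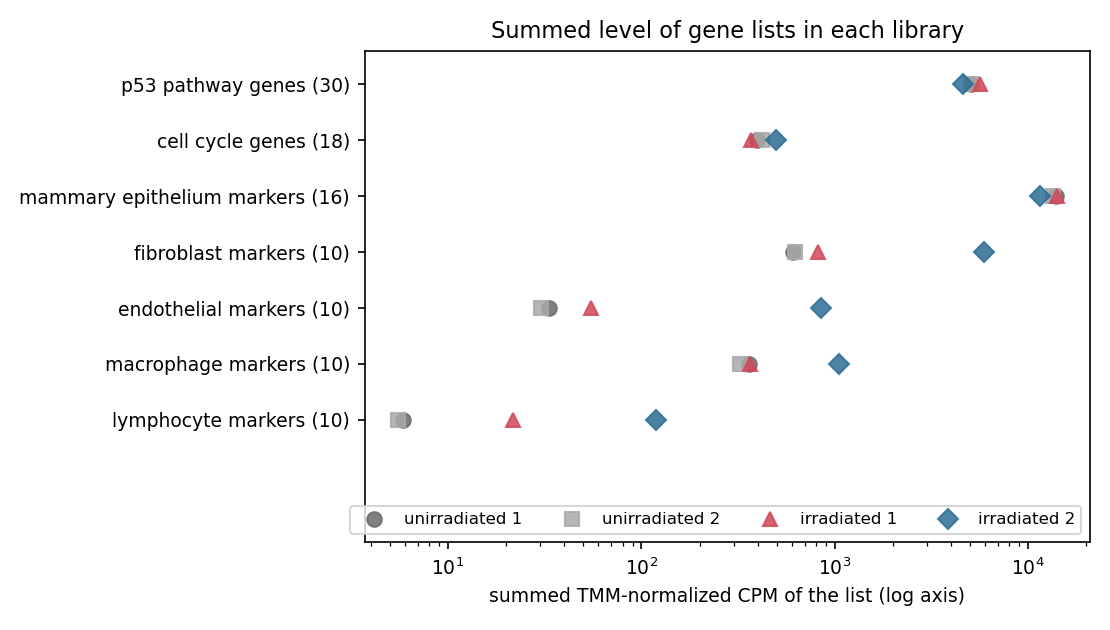
Summed TMM-normalized CPM (log axis) of the p53 pathway genes, cell cycle genes and marker lists in each of the 4 libraries; the number of genes is in parentheses. The p53 pathway genes sum to 5076 and 5060.3 CPM without radiation, 5619 CPM in irradiated 1 and 4594 CPM in irradiated 2, while fibroblast and endothelial markers are highest in irradiated 2.

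The comparison asked how the p53 pathway differed between irradiated and unirradiated Dll1-positive tumor cells. None of the 30 genes passed the test. None of the 30 differed over 1.5-fold in the fit, which averages the irradiated libraries, and none did in irradiated 2. In irradiated 1 Psrc1, Eda2r, Plk3 and Plk2 were over 1.5-fold higher and Fas over 1.5-fold lower. The share of all tested genes past 1.5-fold was not counted, either in the fit or in each library. The counts at this threshold and the genes named are therefore given as values and not read as a trait of the list. The highest fitted log2 fold changes were those of the receptor gene Eda2r at 0.58 and the spindle gene Psrc1 at 0.57, both set mainly by irradiated 1, followed by the polo-like kinase gene Plk2 at 0.49 and the p21 gene Cdkn1a at 0.40. The lowest were those of the death receptor gene Fas at -0.48 and the cyclin gene Ccng1 at -0.28. By the edgeR quasi-likelihood test 0 of 30 genes passed an adjusted p of 0.05 in each direction, against a background of 0% of 15993 genes higher and 0% lower. At an unadjusted p under 0.05 the list held 1 gene, Plk2, higher and 0 lower, against 6.82% and 2.44% of all genes. DESeq2 called 0 of the 30, where it called 2.73% of all genes higher and 0.35% lower, and limma-voom with and without group weights called 0 genes of any kind.

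The irradiated pair lay wholly above the unirradiated pair in 9 of the 30 genes, against 20.3% of all tested genes, and wholly below in 6, against 20% of all. The median log2 fold change was 0.0238 over the 30 genes and 0.00396 over all tested genes. With irradiated 1 alone 20 genes lay above both unirradiated libraries and 8 below, against 41% and 42.9% of all genes tested that way. With irradiated 2 alone 10 lay above and 18 below, against 40.3% and 39.8%. A single library clears the unirradiated pair more often than a pair does, so these counts are read only against those shares.

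**Figure D3:**
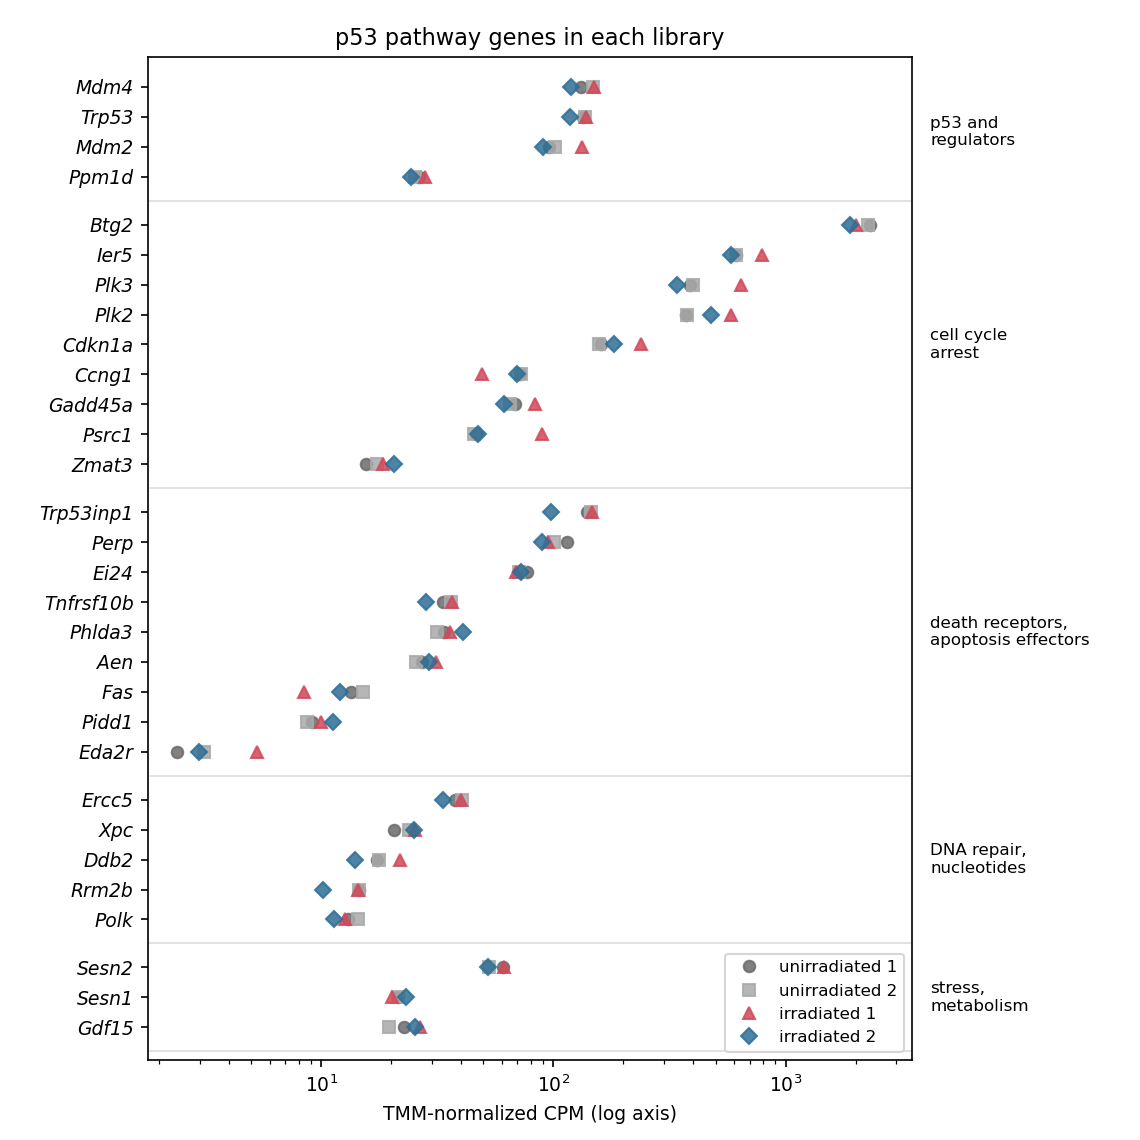
TMM-normalized CPM (log axis) of each of the 30 p53 pathway genes in the 4 libraries, grouped by role; each symbol is 1 library. The unirradiated libraries nearly coincide for most genes, and irradiated 1 stands apart for Psrc1, Plk3, Cdkn1a, Eda2r and Ccng1.

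p53 and its regulators had log2 fold changes between -0.07 and 0.18. Where values stand against each other here and in the gene accounts that follow, the unirradiated libraries 1 and 2 come first and the irradiated libraries 1 and 2 second. Trp53 itself (chromosome 11, 69580359 to 69591873, mm10) was at 134 and 136 CPM without radiation, 139 CPM in irradiated 1 and 118 CPM in irradiated 2. The groups overlapped, and the log2 fold change was -0.07 (SE 0.12; edgeR adjusted p = 0.91). Mdm2, the ligase gene that p53 induces (chromosome 10, 117688875 to 117710758), was at 95.8 and 101 CPM, 133 CPM and 90.5 CPM. Only irradiated 1 exceeded the unirradiated range, and the log2 fold change was 0.18 (SE 0.20). Mdm4, which encodes the Mdm2 partner that blocks p53 activity, was at 132 and 149 CPM against 149 and 119 CPM. Ppm1d, the phosphatase gene that switches the damage response off, measured 26.4 and 25.3 CPM against 28.0 and 24.3 CPM. All 4 regulators were higher in irradiated 1 than in irradiated 2, and all 4 overlapped between groups. The direction of Trp53 and Mdm4 was small enough to flip when libraries were scaled on epithelial markers, to log2 fold changes of 0.024 and 0.025.

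The 9 arrest genes had a median log2 fold change of 0.25, the highest of the 5 role groups. Their median log2 difference from the unirradiated mean was 0.38 in irradiated 1 but -0.05 in irradiated 2. In irradiated 1, 7 of the 9 lay above that mean, against 49.6% of tested genes, and in irradiated 2, 4 did, against 50.6%. Plk2, a stress-induced kinase gene of the polo-like family (chromosome 13, 110395046 to 110400844), was at 374 and 378 CPM without radiation, 582 CPM in irradiated 1 and 475 CPM in irradiated 2. It lay above in both irradiated libraries, with a log2 fold change of 0.49 (SE 0.15), an unadjusted p of 0.023 and an adjusted p of 0.492 by edgeR and of 0.06 by DESeq2. Over the settings tried, its log2 fold change was between 0.32, without irradiated 1, and 0.62, without irradiated 2. Cdkn1a (chromosome 17, 29090976 to 29100727) was at 161 and 157 CPM, 237 CPM and 182 CPM, again above in both (log2 fold change 0.40, SE 0.16; edgeR adjusted p = 0.54). An antisense transcript, AC167363.2, shares 7.68% of the Cdkn1a exon bases, and the library kit does not keep strand.

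A further set of arrest genes was high mainly in irradiated 1. Psrc1, which encodes a spindle protein under p53 control (chromosome 3, 108383839 to 108388231), was at 46.5 and 45.5 CPM without radiation, 89.1 CPM in irradiated 1 and 47.4 CPM in irradiated 2. Plk3, another polo-like kinase gene of the stress response, was at 386 and 401 CPM, 640.1 CPM and 340.1 CPM, and Ier5, an immediate early gene that p53 also induces, at 609 and 610.5 CPM, 794 CPM and 582 CPM. Irradiated 2 was below the unirradiated values for Plk3 and Ier5 and barely above them for Psrc1. The damage-inducible arrest gene Gadd45a had the same pattern, at 68.6 and 64.9 CPM, 83.5 CPM and 61.5 CPM. E230016M11Rik shares 19.1% of its exon bases on the other strand.

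The remaining arrest genes split in direction. Ccng1, the cyclin G1 gene and a well-known p53 target, was lower in irradiated 1, at 49.3 CPM, than in irradiated 2, at 69.9 CPM, and the unirradiated libraries, at 72.0 and 72.4 CPM. Btg2, an antiproliferative gene and the most abundant of the 30 by CPM, was at 2298 and 2259.9 CPM against 2016 and 1884 CPM, below in both irradiated libraries (log2 fold change -0.22, SE 0.16). Zmat3, an RNA-binding zinc finger gene downstream of p53, was at 15.6 and 17.3 CPM against 18.5 and 20.7 CPM, above in both with a log2 fold change of 0.25 (SE 0.17). In irradiated 1 Ccng1 lay below and Cdkn1a above both unirradiated libraries, a contrast that rests on a single library. Both promoters shown above carry a full site, and whether that bears on direction was not tested.

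Death receptor and apoptosis genes had a median log2 fold change of -0.0691 over 9 genes. Fas, the receptor gene for Fas ligand, was at 13.4 and 15.2 CPM without radiation, 8.47 CPM in irradiated 1 and 12.0 CPM in irradiated 2. Both irradiated libraries lay below, with a log2 fold change of -0.48 (SE 0.25; edgeR adjusted p = 0.644). Tnfrsf10b, the mouse receptor gene for the death ligand TRAIL, was at 33.6 and 36.4 CPM against 36.7 and 28.2 CPM, with overlap. Eda2r, the receptor gene for ectodysplasin A2, was the least expressed member, with 50 and 53 counts without radiation, then 105 counts in irradiated 1 and 56 counts in irradiated 2, or 2.41, 3.13, 5.30 and 2.99 CPM. Its SE of 0.43 around a log2 fold change of 0.58 was the largest of the list.

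Among the death effectors, Perp, which encodes a membrane protein of desmosomes and cell death, was at 115 and 101 CPM against 94.3 and 89.0 CPM, below in both irradiated libraries. Trp53inp1, a p53 cofactor gene of stress and autophagy, was at 140 and 145 CPM, 147 CPM in irradiated 1 and 97.7 CPM in irradiated 2, so irradiated 2 alone was low. Aen, an exonuclease gene of apoptotic DNA breakdown, was at 27.0 and 25.7 CPM against 31.2 and 29.2 CPM, above in both. Also above in both were Phlda3, an inhibitor gene of Akt signaling at 33.9 and 31.6 CPM against 35.9 and 40.7 CPM, and Pidd1, the scaffold gene of the PIDDosome, at 9.09 and 8.73 CPM against 9.99 and 11.2 CPM. Ei24, an endoplasmic reticulum protein gene of autophagy, was at 77.2 and 71.2 CPM against 69.1 and 72.5 CPM, with overlap.

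Repair genes lay on both sides of a median log2 fold change of -0.0990. Xpc, the damage sensor gene of nucleotide excision repair, was above in both irradiated libraries, at 20.5 and 23.9 CPM against 25.5 and 25.1 CPM. Polk, a translesion polymerase gene, was below in both, at 13.1 and 14.4 CPM against 12.7 and 11.4 CPM, as was Rrm2b, the ribonucleotide reductase subunit gene that p53 induces, at 14.5 and 14.5 CPM against 14.4 and 10.2 CPM. For Rrm2b only irradiated 2 was clearly lower. Ercc5, the nuclease gene of excision repair, was at 37.9 and 40.6 CPM against 39.9 and 33.4 CPM. Ddb2, which encodes a damage recognition subunit, was at 17.4 and 17.7 CPM, 21.9 CPM in irradiated 1 and 13.97 CPM in irradiated 2, so the irradiated libraries lay on opposite sides. The antisense gene Acp2 shares 23.8% of the Ddb2 exon bases and had 1895 counts over the 4 libraries, so reads of the pair cannot be told apart there.

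Among the stress genes, Gdf15, a secreted stress cytokine gene, was above in both irradiated libraries, at 22.7 and 19.6 CPM against 26.7 and 25.3 CPM, with a log2 fold change of 0.30 (SE 0.15; edgeR adjusted p = 0.628). The sestrin genes encode proteins that restrain mTORC1. Sesn1 was at 21.5 and 21.5 CPM against 20.1 and 23.2 CPM, while Sesn2 had 60.5 and 52.7 CPM against 61.4 and 52.3 CPM. Their log2 fold changes were 0.01 and 0.01, and the direction of Sesn2 flipped with upper-quartile scaling (-0.00229) and with library size alone (-0.00619).

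The irradiated libraries differed from each other across much of the list. Irradiated 1 lay above the unirradiated mean in 22 of 30 genes, against 49.6% of tested genes, and irradiated 2 in 11, against 50.6%. The median log2 difference from the unirradiated mean was 0.13 in irradiated 1 and -0.10 in irradiated 2. Set directly against each other, a comparison that uses no unirradiated library, irradiated 1 was above irradiated 2 in 23 of 30 genes, against 45.5% of tested genes. All 5 repair genes, all 4 regulators and 7 of the 9 arrest genes were higher in irradiated 1. With 1 library on each side this difference has no replicate check.

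**Figure D4:**
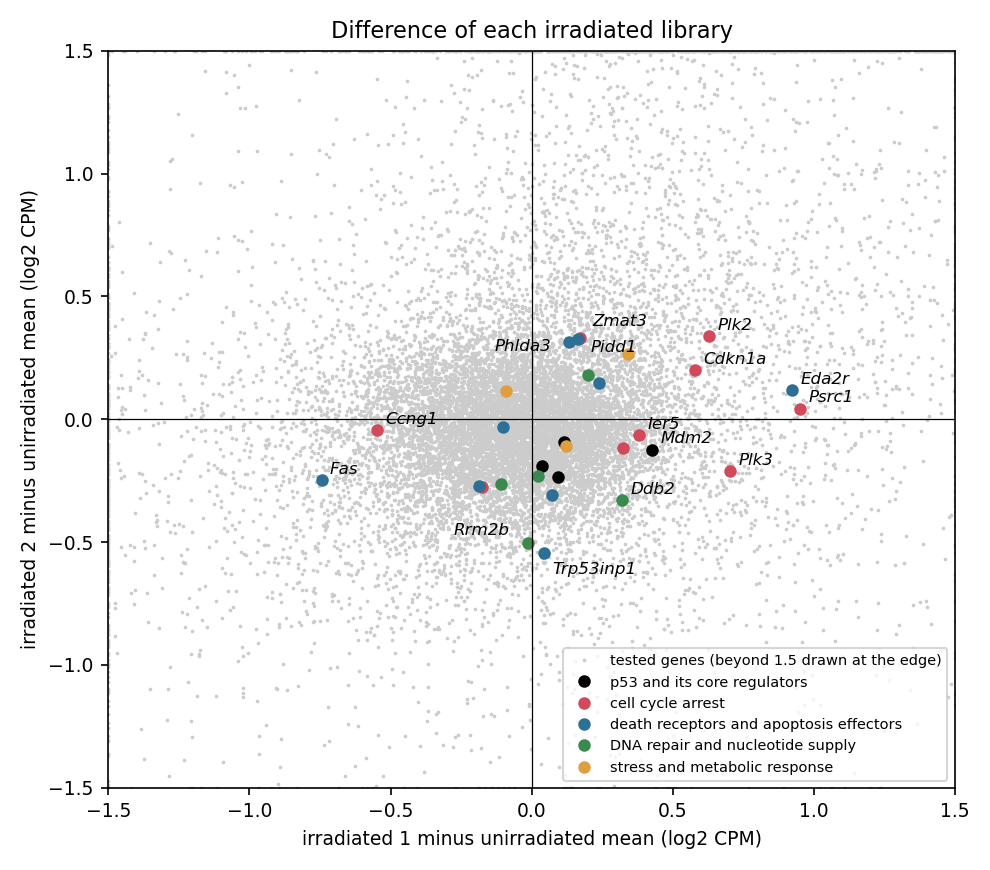
Log2 CPM difference of irradiated 1 (x axis) and irradiated 2 (y axis) from the unirradiated mean, for all tested genes (grey) and the 30 p53 pathway genes (coloured by role); both axes share the unirradiated libraries. Plk2 and Cdkn1a are positive on both axes, Fas is negative on both, and Psrc1, Eda2r, Plk3, Mdm2 and Ier5 are displaced along the irradiated 1 axis.

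Each irradiated library was also fitted alone against the unirradiated pair, which assumes that the lone library varies like that pair. In edgeR, irradiated 1 had 8 of 30 genes called higher, namely Cdkn1a, Plk2, Plk3, Psrc1, Ier5, Gadd45a, Mdm2 and Eda2r, against a background of 11.9% of all genes. It had 2 called lower, Ccng1 and Fas, against 13.9%. In irradiated 2 only Plk2 was called higher, against 15.9% of all genes, and 6 genes were called lower, namely Trp53inp1, Rrm2b, Perp, Btg2, Tnfrsf10b and Mdm4, against 7.95%. Plk2 was the 1 gene called in the same direction in both, with log2 fold changes of 0.62 and 0.32. These fits share the unirradiated pair, and the spread between the irradiated libraries was far larger than the spread they assume.

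**Figure D5:**
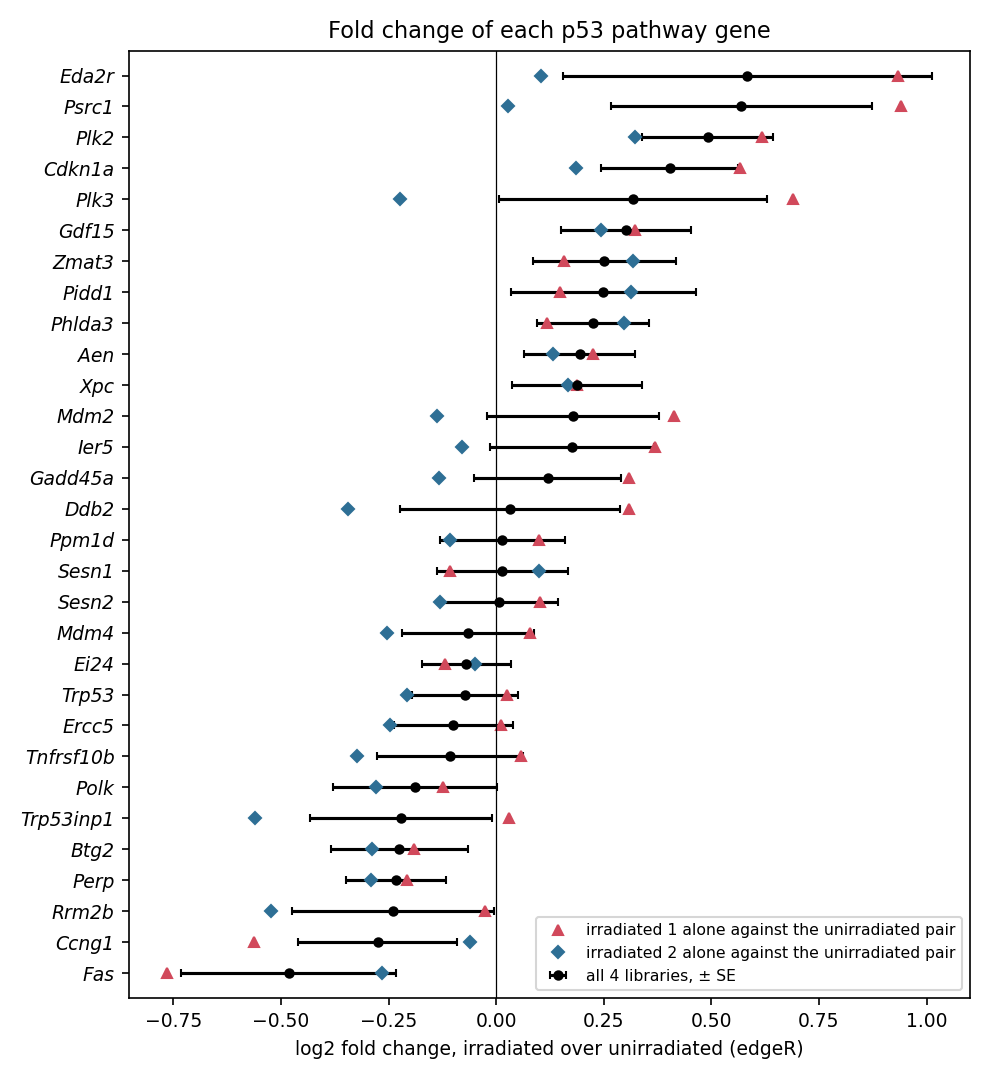
Log2 fold change of the 30 genes from the edgeR fit on all 4 libraries (black, bars ± SE) and from the fits of irradiated 1 alone (red triangles) and irradiated 2 alone (blue diamonds) against the unirradiated pair. Triangles and diamonds lie far apart for Psrc1, Eda2r and Plk3 and close together for Xpc, Gdf15 and Ei24.

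Epithelial marker levels also differed between the irradiated libraries, and their part in the split was not tested. Of 16 mammary epithelium markers 14 were higher in irradiated 1 than in irradiated 2, against 45.5% of tested genes. Their median log2 difference from the unirradiated mean was -0.0319 in irradiated 1 and -0.30 in irradiated 2. Both irradiated libraries lay below in 8 of these markers and above in 1, against 20% and 20.3% of tested genes. When libraries were scaled on the summed epithelial markers in place of TMM, the irradiated pair lay wholly above in 15 of the 30 genes, against 27.5% of tested genes, and below in 2, against 8.55%. Irradiated 1 was then above irradiated 2 in 13 of 30 genes, against 23.4%. Per unit of epithelial marker signal Plk2 was at 547 and 545 in the irradiated libraries against 355 and 373. Cdkn1a was at 223 and 209 against 153 and 155. On this scale the summed epithelial markers equal their mean CPM over all libraries in each library. The scaling applies the same factor to every gene of a library and lowers irradiated 1 against irradiated 2 for all of them. That the irradiated libraries came closer for Plk2 and Cdkn1a than in CPM follows from this factor, and they came closer for Psrc1 and Plk3 too. Mdm2 and Ier5 also lay above in both on this scale, at 125 and 104 against 91.0 and 100.1 and at 747 and 668 against 578 and 603. Psrc1 and Plk3 still differed between the irradiated libraries, at 83.8 and 54.4 and at 602 and 390.1. This scaling moved the median log2 fold change of all genes by 0.11, the p53 pathway median stood 0.0119 above that of all genes, and no gene passed edgeR under it.

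By length, the p53 pathway genes covered a wide range in unirradiated cells. In RPKM (CPM per kilobase of the deposited gene length) the highest were Btg2 at 831, Ier5 at 186, Plk3 at 155 and Plk2 at 83.7, all genes that are also induced early by growth factor and stress signals, followed by Perp at 55.2, Cdkn1a at 44.7, Gadd45a at 37.8 and Trp53 at 33.4. Mdm2 was at 19.4, Mdm4 at 9.48 and Ppm1d at 8.15 RPKM. The lowest were Rrm2b at 1.59, Zmat3 at 1.44 and Eda2r at 0.470 RPKM. Btg2 made up 45.0% of the summed CPM of the list. Between the unirradiated libraries the SD was 3.71% of the mean in the median gene and 18.4% at most, and between the irradiated ones 13.4% and 43.3%.

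Other genes of the pathway were read from 3 lists. Of 21 activators, cofactors and antagonists of p53, 0 passed edgeR, 4 lay above in the irradiated pair and 2 below, against 20.3% and 20% of all tested genes, the background for the lists that follow too. Cdkn2a, which encodes the Mdm2 inhibitor Arf and the Cdk inhibitor p16, was at 8.42 and 7.31 CPM against 15.3 and 11.6 CPM (edgeR adjusted p = 0.496). The p53 relative Trp73 was at 0.626 and 0.649 CPM against 1.77 and 1.33 CPM (edgeR adjusted p = 0.525). These are only 13 and 11 counts against 35 and 25 counts. On the lower side the checkpoint kinase gene Chek2 measured 22.3 and 21.3 CPM against 16.5 and 19.1 CPM. The p53 ligase gene Rchy1 measured 54.1 and 51.5 CPM against 46.3 and 48.7 CPM.

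Of 25 other reported p53 targets 0 passed edgeR, 11 lay above and 3 below. Dram1, a lysosomal autophagy gene, measured 3.51 and 2.65 CPM against 4.54 and 11.4 CPM. The 14-3-3 sigma gene Sfn, a mediator of arrest before mitosis, measured 477 and 459 CPM against 419 and 362 CPM, while Lpin1, a lipid phosphatase gene, had 55.1 and 58.3 CPM against 53.6 and 42.5 CPM.

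Most cell cycle genes of the list reported as repressed by p53 through p21 lay lower in irradiated 1 than in irradiated 2. Most of the p53 pathway genes, 23 of 30, lay higher in irradiated 1 than in irradiated 2. Whether these 2 patterns are linked was not tested. Only 1 of 18 was higher in irradiated 1 than in irradiated 2, against 45.5% of tested genes, and their summed level was 396 and 423 CPM without radiation, 370.0 CPM in irradiated 1 and 499 CPM in irradiated 2. Their median log2 difference from the unirradiated mean was -0.0859 in irradiated 1 and 0.29 in irradiated 2. The mitotic kinase gene Cdk1 was at 14.6 CPM in irradiated 1, 23.7 CPM in irradiated 2, and 20.5 and 19.1 CPM without radiation. The cyclin gene Ccna2 measured 20.8 and 23.4 CPM against 14.7 and 24.7 CPM, and the centromere protein gene Cenpf 11.2 and 13.2 CPM against 11.6 and 11.8 CPM. Above in both irradiated libraries were the checkpoint kinase gene Bub1b, at 19.8 and 21.1 CPM against 25.6 and 27.2 CPM, plus the phosphatase gene Cdc25c, with 5.77 and 6.13 CPM against 8.78 and 7.78 CPM. None of the 18 passed edgeR, and 4 lay above and 0 below, against the same 20.3% and 20%.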

How the data were processed

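Sorted Dll1-mCherry-positive tumor cells of 2 unirradiated and 2 irradiated samples gave poly(A)-selected libraries from a non-directional kit, per the labels' protocols. The authors deposited unnormalized counts for each gene, with its length. The submitters' processing notes name HTSeq 0.6.1, STAR 2.5, mm10 and DESeq2; no counting option or annotation release is recorded. The single-library tables held the same counts as the 4-library table (0 differing values).

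Counts were analysed with edgeR 4.0.16 (R 4.3.3): filterByExpr (minimum count 10, minimum total 15) kept 15993 genes, scaling was TMM, and the quasi-likelihood test was two-sided, its p-values adjusted by Benjamini-Hochberg across the 15993 genes and called under 0.05. Log2 CPM used a prior count of 2, and SEs were taken from the fold change and its F statistic. SDs are over 2 libraries. An exact permutation test of 2 against 2 cannot go below p = 0.333. Alternatives used DESeq2 1.42.0, limma 3.58.1, other scalings and filters, the replicate number as a block, and each library left out. The steps were tested on simulated data. All 30 members are named, and from each of the 3 other pathway lists the 2 genes with the smallest p in each direction, of which 1 is not reported here; Cdk1 was added after its values were seen. The members and lists were chosen with earlier results of these data known. Exon overlaps come from GENCODE M21 (GRCm38), which gave 29 members the same position as the files; Fas differed. Promoters come from RefSeq and were read for 23 members.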

Additional observations from a re-analysis of the deposited data

How the results depend on the processing

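Of 15 other fits, those without an irradiated library and the edgeR fit with no low-count filter called p53 pathway genes; the last called 1 higher (Psrc1, log2 fold change 0.55, adjusted p = 0.00826). With no filter edgeR called 1338 genes higher and 105 lower, DESeq2 437 and 56, and the replicate block 2 higher. Leaving out each library in turn gave 0 to 2713 genes higher, 0 to 2355 lower, 0 to 8 p53 pathway genes higher, 0 to 6 lower, 9 to 20 above, 7 to 18 below, and a median log2 fold change of -0.12 to 0.11. Both irradiated libraries decided these ranges: without irradiated 1 there were 2713 genes higher and 1354 lower, without irradiated 2 there were 2022 and 2355. Scaling on epithelial markers gave 15 above and 2 below, against 27.5% and 8.55% of all tested genes. That scaling moved the median log2 fold change of all genes by 0.11. The cause of the ranges was not tested.

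Directions turned for small fold changes and for genes on which the irradiated libraries lie apart. From the fit without irradiated 1 to that without irradiated 2 the log2 fold change ran from -0.21 to 0.025 for Trp53, -0.14 to 0.41 for Mdm2, -0.25 to 0.078 for Mdm4, -0.11 to 0.10 for Ppm1d, -0.13 to 0.31 for Gadd45a, -0.22 to 0.69 for Plk3, -0.080 to 0.37 for Ier5, -0.32 to 0.058 for Tnfrsf10b, -0.56 to 0.030 for Trp53inp1, -0.34 to 0.31 for Ddb2, -0.25 to 0.011 for Ercc5 and 0.10 to -0.11 for Sesn1. Without unirradiated 2 Mdm4 was at 0.00898, Ppm1d at -0.03 and Sesn2 at -0.10. Sesn2 ran from -0.13 without irradiated 1 to 0.10 without unirradiated 1. Scaling on epithelial markers gave 0.024 for Trp53, 0.025 for Mdm4 and 0.043 for Ei24. Sesn2 was at -0.00229 with upper-quartile scaling, -0.00619 with library size alone and -0.0074 with no filter. With the replicate block Ddb2 was at -0.00129 and the median of the 30 genes at 0.0113, and the block changed no call among them. Same-numbered libraries share only a number: the correlation of their deviations was -0.0992.

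Among the 30 genes depth limits Eda2r most, at 50 to 105 counts per library. With 2 libraries a group and an irradiated pair that varies more than the unirradiated one, a p above the threshold does not show that a gene did not differ.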
